A study of Mus musculus with 270 samples.

Results

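The lungs of the oldest mice of an aging series, 26 months (M) of age, were compared with those of mice of 20 M. The comparison takes the 5 lung libraries of 26 M and the 7 of 20 M, 12 of the 45 lung libraries and of the 270 libraries of 6 organs. All 12 mice were male, wild-type C57BL/6J animals with no treatment, each library came from a different mouse, and polyadenylated RNA of the whole frozen lung was sequenced. The libraries were chosen by organ and age alone, and a gene was tested if 5 or more lung libraries held 10 or more normalized counts of it, which left 21257 of 51810 genes. The question was which lung genes differ over the last step of the series.

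The lung exchanges gas across a thin wall of alveolar type 1 cells and capillary endothelium, which type 2 cells cover with surfactant. It is also an immune organ, in which resident macrophages, patrolling monocytes and lymphocytes meet inhaled particles. Interferons raise a set of genes in most cell types, among them guanylate-binding proteins, the signal carrier STAT2, and the MHC class I molecules that show peptides to T cells and natural killer cells. The Q region of the mouse MHC encodes non-classical class I molecules, including the Qa-2 antigens.

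The lung libraries differed in quality in ways that touched both ages. Recovered reads ranged from 2356992 to 8888056 at 20 M and from 4702828 to 11979010 at 26 M, and the median was 6072887 and 11786962. An unexplained suffix b stood in the column names of 4 of the 7 libraries of 20 M and 1 of the 5 of 26 M, and of 14 of the 45 in lung. Of the 12 libraries, 5 stood apart, 4 of 20 M (replicates 1, 3, 6 and 7) and 1 of 26 M (replicate 3). In 4 of them, 41 to 111 of 9578 abundant genes had no read, against 0 to 5 in the other 8, and the 20 M replicate 6 held 7.49% of its reads on predicted Gm and Rik genes, against 2.11% to 3.37% in the others. Transcripts of other organs varied as well. Alb, the liver's serum albumin, stood at 18354 and 10790 normalized counts in the 20 M replicates 1 and 3 and at 17711 in the 26 M replicate 3, and between 525 and 5684 elsewhere. Myh6, the atrial and adult ventricular myosin of the mouse heart, stood at 21552 in the 20 M replicate 7 and between 466 and 1854 in the other libraries of 20 M. For the leading genes and lists, values without these 5 libraries are given as well.

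After adjustment, 2 of the 21257 genes differed between 26 M and 20 M (0.00941% of those tested). H2-Q6, a non-classical MHC class I gene, rose, and Gm38256, a gene model of unknown function, fell (each 0.0047% of those tested). Before adjustment, 2440 genes (11.5%) had a p of at most 0.05, of which 1416 (6.66%) were higher and 1024 (4.82%) lower at 26 M, and the median log2 difference of all tested genes was -0.03. The direction of the unadjusted genes turned with the method, since the edgeR quasi-likelihood test on the recovered reads gave 979 higher and 2153 lower, with 0 adjusted calls and 3132 before adjustment. The DESeq2 Wald test on the same reads called 197 genes, 49 higher and 148 lower. Without the 5 libraries that stood apart, 0 genes passed by limma, with 1568 before adjustment. Without the suffix b libraries 3 genes passed, all higher (Uba7, Acbd4 and Med12, named after their values were seen), and with the suffix as a covariate 0, with 2070 before adjustment.

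**Figure D1:**
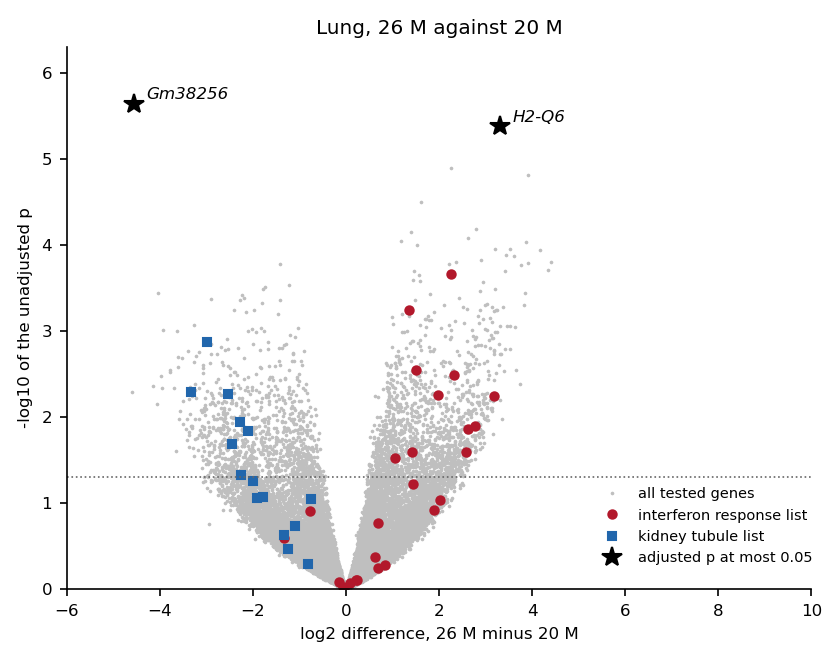
Log2 difference between 26 M and 20 M (x axis, log2 of normalized count + 1) against the -log10 of the unadjusted p from limma (y axis) for the 21257 tested lung genes. Stars mark the 2 genes that passed the adjustment, red circles the 26 tested genes of the interferon response list and blue squares the 15 of the kidney tubule list, and the dotted line is an unadjusted p of 0.05.

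H2-Q6 (ENSMUSG00000073409) lies in the Q region of the MHC on chromosome 17, at chr17:35424850-35430055 on the plus strand of GRCm38. At 26 M its normalized counts were 1441, 1421, 467, 671 and 1404. At 20 M they ranged from 6.81 to 546 with a median of 166, so 4 of the 5 libraries of 26 M lay above every library of 20 M and the lowest, replicate 3, overlapped them. The log2 difference was 3.30 (standard error 0.64, adjusted p = 0.0442 by limma with Benjamini-Hochberg adjustment). The lowest libraries of 20 M, replicates 1 and 7, were among those that stood apart. Without the 5 libraries the difference was 2.26 (standard error 0.60, adjusted p = 0.451), and without suffix b libraries it was 3.47 (adjusted p = 0.0515). Over 28 alternative settings it stayed between 2.20 and 3.71, and it passed in 10 of them.

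The mean and SD of H2-Q6 over the 7 mice of 3 M were 447 ± 200 normalized counts. The 9 mice of 5 M had 298 ± 171, the 8 of 8 M 388 ± 215 and the 9 of 14 M 270 ± 128. The mean was 198 ± 182 in the 7 mice of 20 M and 1081 ± 473 in the 5 of 26 M, so 26 M was the age with the highest mean and 20 M that with the lowest. The highest library of any younger age had 804 normalized counts, below 3 of the 5 libraries of 26 M.

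H2-Q6 belongs to a family of near-identical genes, so its reads may be shared with its neighbours. Of the windows of 100 bases in its longest coding transcript, 10.8% also occurred in transcripts of other genes and 8.36% in H2-Q7, which lies next to it in the Q region. With windows of 50 bases, the shares were 32.0% and 13.9%. How the counting treated such reads is not given in the sources used here. H2-Q7 stood at 223 to 2487 normalized counts at 20 M and at 229 to 2370 at 26 M, with a log2 difference of 0.57 (standard error 0.73), and the groups overlapped throughout. The sum of both genes gave 1.46 (standard error 0.51). The share of H2-Q6 in that sum was 1.75% to 48.1% at 20 M and 34.5% to 76.9% at 26 M. These neighbours were looked at after the values of H2-Q6 were seen.

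Of the 15 tested MHC class I heavy chain genes, 13 had a positive log2 difference, against 10356 of all 21257 tested genes. The median of the 15 was 0.98. With an unadjusted p of at most 0.05, 2 were higher, H2-Q6 and the scarce H2-Q1, against 6.66% of all tested genes. H2-M2, H2-M3 and H2-M5 had log2 differences of 1.11, 1.08 and 1.31. Their mean normalized counts were 186, 141 and 22.5 at 20 M and 188, 141 and 26.7 at 26 M. In their lowest library of 20 M the counts were 3.09, 0 and 0. H2-Q4 ranged from 154 to 545 at 20 M and stood between 104 and 1629 at 26 M (log2 difference 0.98, standard error 0.49). The classical antigen-presenting genes H2-K1 and H2-D1 had log2 differences of 0.69 (standard error 0.39) and 0.41 (standard error 0.40), and neither passed.

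The promoters of H2-Q6 and its 2 neighbours are shown because the family may share reads and the log2 differences of its members were unequal. Each is the window of 250 bases before the start of the gene from RefSeq (GRCm38.p6, plus strand), chr17:35424600-35424849 for H2-Q6, chr17:35438905-35439154 for H2-Q7 and chr17:35379367-35379616 for H2-Q4. Capitals mark the letters TTTCNNTTC, found in interferon response elements, and CCAAT, each searched on both strands.
H2-Q6: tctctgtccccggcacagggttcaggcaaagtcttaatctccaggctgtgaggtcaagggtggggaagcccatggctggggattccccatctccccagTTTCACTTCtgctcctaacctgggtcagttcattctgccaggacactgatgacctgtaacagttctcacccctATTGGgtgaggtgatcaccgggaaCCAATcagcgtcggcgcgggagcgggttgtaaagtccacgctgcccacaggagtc
H2-Q7: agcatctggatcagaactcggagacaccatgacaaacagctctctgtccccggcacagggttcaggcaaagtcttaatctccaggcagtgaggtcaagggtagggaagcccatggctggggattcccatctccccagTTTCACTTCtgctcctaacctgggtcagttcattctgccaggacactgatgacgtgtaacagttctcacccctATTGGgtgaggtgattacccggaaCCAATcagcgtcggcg
H2-Q4: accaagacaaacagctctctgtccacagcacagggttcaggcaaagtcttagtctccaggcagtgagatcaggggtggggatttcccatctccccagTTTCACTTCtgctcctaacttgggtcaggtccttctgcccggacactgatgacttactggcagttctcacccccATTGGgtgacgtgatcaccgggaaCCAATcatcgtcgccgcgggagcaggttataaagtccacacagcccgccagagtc
All 3 windows held TTTCNNTTC once and CCAAT in both orientations. Among 32851 promoter windows of the same length, 6.31% held TTTCNNTTC and 33.9% held CCAAT.

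Gm38256 (ENSMUSG00000102789) is annotated as a gene model still to be experimentally tested. It lies at chr1:157940385-158141318 on the plus strand of GRCm38, with 4 exons. No window of 50 bases of its transcript (0 of 901) occurred in a transcript of another gene. At 26 M its normalized counts were 32.2, 46.6, 707, 37.4 and 19.3. At 20 M they ranged from 239 to 13288 with a median of 723, so 4 libraries of 26 M lay below every library of 20 M and replicate 3 lay among them. The log2 difference was -4.55 (standard error 0.86, adjusted p = 0.0442 by limma). Without the 5 libraries it was -4.59 (standard error 0.99, adjusted p = 0.393), and with log2 depth as a covariate it was -2.67 (adjusted p = 0.334). The means of the 4 younger ages ranged from 193 (3 M) to 426 (14 M), against 3239 ± 4656 (SD, n = 7) at 20 M and 168 ± 301 (SD, n = 5) at 26 M.

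**Figure D2:**
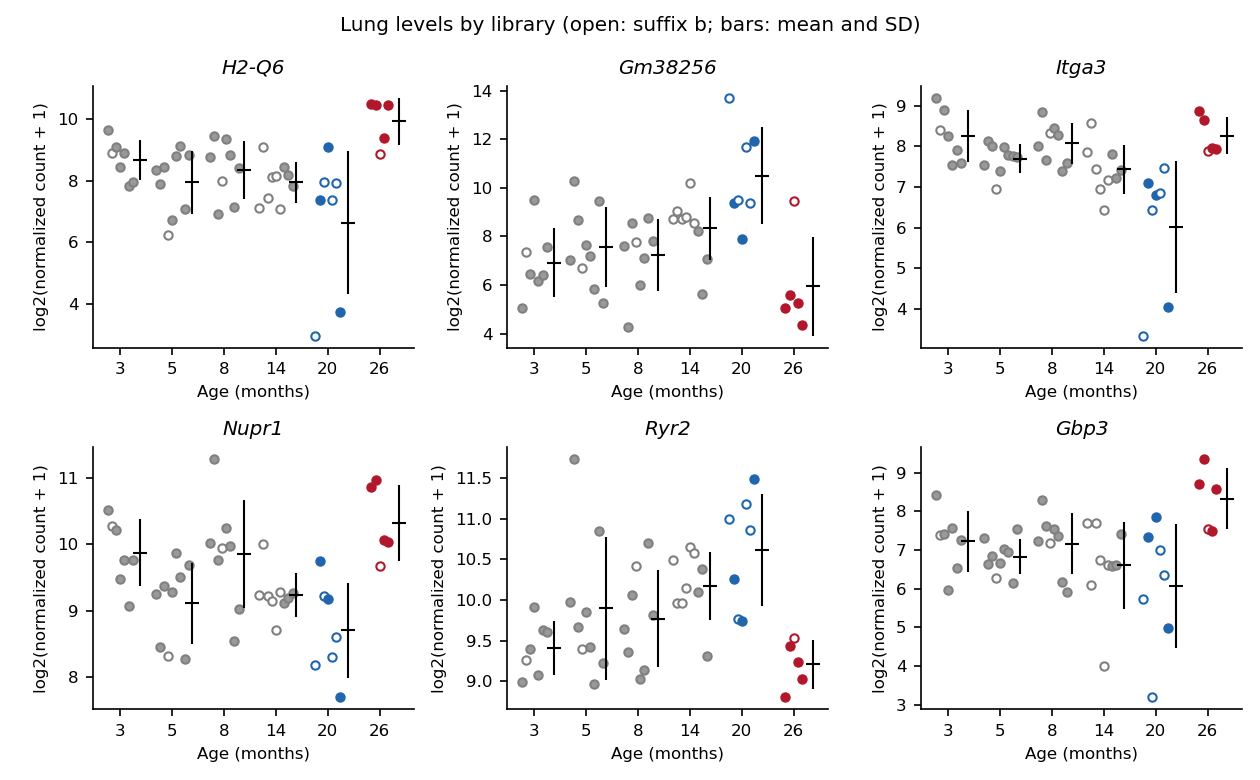
Levels of 6 lung genes, as log2 of normalized count + 1 (y axis), in each library by age in months (x axis). Blue marks 20 M, red 26 M and grey the younger ages, open circles are libraries with the suffix b, and the black bars to the right of each age are its mean and SD. For H2-Q6 and Gm38256 4 of 5 libraries of 26 M lie outside the range of 20 M.

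The next genes in order of p did not pass the adjustment. They were picked by this same contrast, so the separation of the ages in several of them describes them and tests nothing. Itga3, the alpha subunit of an integrin receptor for laminin, had 469, 402, 236, 250 and 244 normalized counts at 26 M and 9.09 to 177 at 20 M (median 111). The groups did not overlap, and the log2 difference was 2.26 (standard error 0.47, adjusted p = 0.0810). Across all tested genes, the groups did not overlap in 58 genes that were higher (0.273%) and in 40 that were lower (0.188%) at 26 M. Among named genes higher at 26 M, Zup1, a deubiquitinase of the DNA damage response, ranged from 353 to 681 at 26 M and from 119 to 274 at 20 M. Golim4, a Golgi membrane protein, ranged from 543 to 1065 and from 178 to 457. Both sets of values were separate, with log2 differences of 1.40 (standard error 0.32) and 1.19 (standard error 0.28). Nupr1, a stress-induced chromatin regulator, stood at 818 to 2003 at 26 M and 207 to 864 at 20 M and overlapped slightly (log2 difference 1.62, standard error 0.35, adjusted p = 0.134). Rnf215, Ppm1m and Rccd1 did not overlap either, but at least 1 library of 20 M had no read of each. Leaving out the 5 libraries, the log2 differences of Itga3, Zup1, Golim4 and Nupr1 were 1.44, 1.35, 0.97 and 1.40.

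Among the genes lower at 26 M, Ryr2, the calcium release channel of cardiac muscle, had 446, 688, 742, 601 and 521 normalized counts at 26 M and 858 to 2858 at 20 M (log2 difference -1.41, standard error 0.35, adjusted p = 0.156). Mcub, a dominant-negative subunit of the mitochondrial calcium uniporter, ranged from 64.3 to 133 at 26 M and from 161 to 564 at 20 M. The receptor tyrosine kinase Ephb2 ranged from 62.7 to 84.7 and from 117 to 682, and Celsr3, a cadherin of planar cell polarity, from 6.05 to 25.9 and from 42.9 to 216. The groups did not overlap in any of these 4 genes. Fam13a, which lies in a locus linked to human lung function, ranged from 466 to 852 and from 617 to 2424 (log2 difference -1.23, standard error 0.32, adjusted p = 0.196). With the 5 libraries left out, the log2 differences of Ryr2, Mcub, Celsr3 and Fam13a were -1.27, -1.76, -2.73 and -1.22. Over 28 alternative settings they ran from -1.55 to -0.71, -2.06 to -1.19, -3.12 to -1.89 and -1.43 to -0.83. The highest library of Ryr2 was the 20 M replicate 7, in which Myh6 stood at 21552.

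Which of the 2 ages lay farther from the younger ones was counted for the unadjusted genes. Of the 1416 genes higher at 26 M before adjustment, 71.3% had a 20 M mean farther from the mean of the 4 younger ages than the 26 M mean was. Their median was -1.04 at 20 M and 0.51 at 26 M relative to those ages, on the log2 scale. Of the 1024 lower genes the share was 51.8%, with medians of 0.88 and -0.89, and of all tested genes 49.6%. These genes were picked by the same contrast, so the shares describe them and test nothing. Itga3 shows the first pattern, with means of 332, 213, 283 and 187 from 3 to 14 M, 92.5 at 20 M and 320 at 26 M.

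The interferon response list had mostly positive differences, 21 of 26. Of its 26 tested genes, 11 were higher and 0 lower with an unadjusted p of at most 0.05, against 6.66% and 4.82% of all tested genes, and 0 passed the adjustment. The median log2 difference of the list was 1.21. Gbp3, a guanylate-binding GTPase, had 414, 648, 185, 178 and 384 normalized counts at 26 M and 8.15 to 231 at 20 M, with a median of 81.4 (log2 difference 2.26, standard error 0.57, adjusted p = 0.168). Stat2, which carries the type I interferon signal to the nucleus, had 677, 556, 169, 390 and 473 at 26 M and 74.2 to 296 at 20 M (1.36, standard error 0.37). For both genes 3 or more libraries of 26 M lay above all of 20 M, and replicate 3 lay within their range. Gbp2 had a log2 difference of 2.33 (standard error 0.75) and Oasl2, an antiviral OAS-like protein, of 1.51 (standard error 0.48). Gbp7, a further member of the family outside the list, gave 1.59 (standard error 0.41). With the 5 libraries left out, the differences were 1.13 for Gbp3, 1.13 for Stat2, 1.42 for Gbp2, 1.14 for Oasl2 and 1.83 for Gbp7. The interferon-induced chemokine Cxcl9 went from 88.0 to 2955 at 20 M and from 1.82 to 3928 at 26 M, so its libraries spread too widely to order the ages.

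The level of the list in each library, taken as the median deviation of its genes from their mean over the 12 libraries on the log2 scale, was 1.88, 1.49, -0.84, 0.50 and 1.29 at 26 M. At 20 M it ranged from -1.81 to 0.84 with a median of -0.12. The library of 26 M that lay low was replicate 3, and the lowest of 20 M were replicates 7, 1 and 3, all libraries that stood apart. Without those 5 libraries, 5 genes were higher and 1 lower before adjustment, against 4.07% and 3.30% of all tested genes. The median log2 difference of the list was 1.10. With GC content and gene span regressed out of each library the counts were 10 and 0, against 6.24% and 4.10%, and the median was 1.16. The covariates that took depth or the hepatocyte and kidney tubule lists out of the contrast left 0 adjusted calls over all genes.

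**Figure D3:**
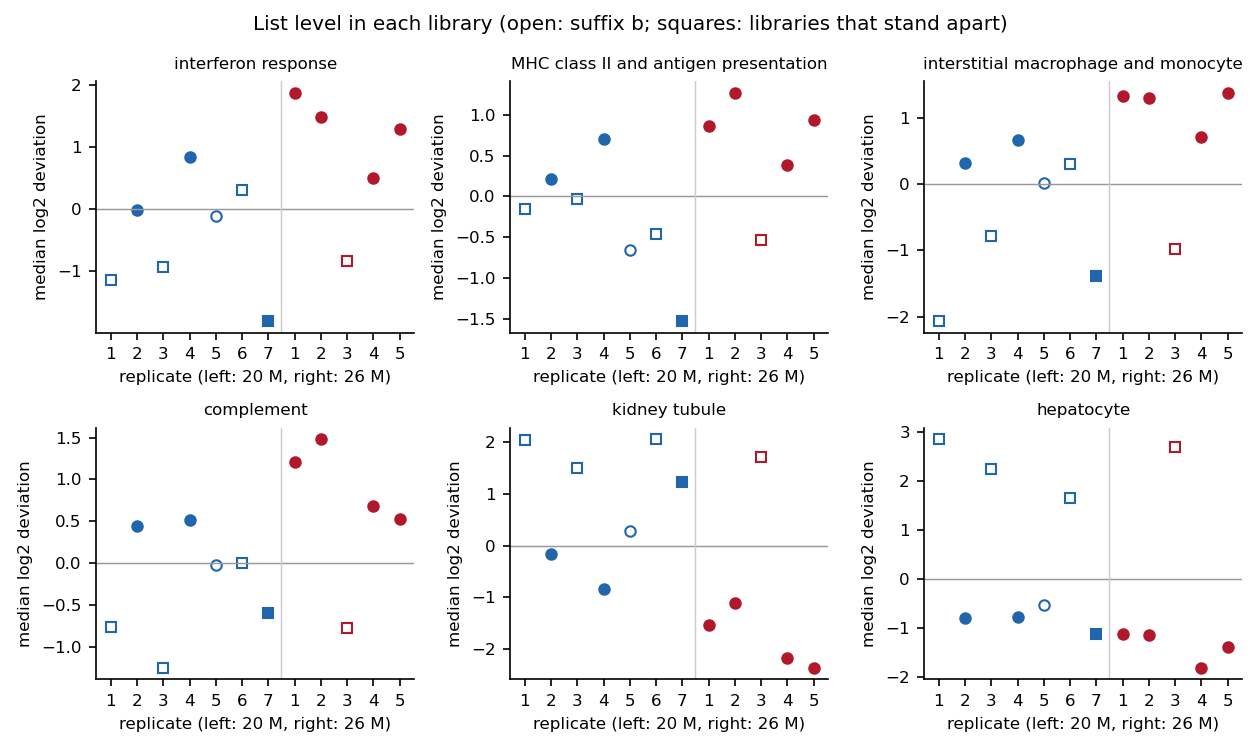
Level of 6 gene lists in each of the 12 libraries, as the median over the list's tested genes of the log2 deviation from the mean of the 12 libraries (y axis), by replicate (x axis, 20 M in blue left and 26 M in red right). Open symbols are libraries with the suffix b and squares the 5 libraries that stood apart. The kidney tubule and hepatocyte lists are high in the 26 M replicate 3, where the interferon response list is at -0.84.

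Antigen presentation and myeloid lists had positive medians too. In the list of MHC class II and antigen presentation, 6 of 16 tested genes were higher and 0 lower before adjustment. The shares of all tested genes were 6.66% and 4.82%, and the median log2 difference of the list was 0.68. Cd74, the invariant chain, had 1323, 2103, 247, 574 and 610 normalized counts at 26 M and 121 to 686 at 20 M (1.32, standard error 0.47). H2-Eb1, a class II beta chain, had 820, 1564, 153, 517 and 703 and 70.4 to 740 (1.47, standard error 0.52). In both genes 2 libraries of 26 M lay above the range of 20 M and 3 within it. Tap1, which pumps peptides into the endoplasmic reticulum, had a log2 difference of 1.95 (standard error 0.79). The differences of Cd74 and Tap1 were 1.76 and 2.45 when the 5 libraries were left out. Without the 5 libraries the list had 5 higher and 1 lower, against 4.07% and 3.30% of all tested genes, with a median of 0.83.

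Of the 18 tested genes of interstitial macrophages and monocytes, 8 were higher and 0 lower before adjustment, against 6.66% and 4.82% of all tested genes. The median of the 18 was 1.33. Ccr2, the receptor that brings inflammatory monocytes out of the marrow, had 1012, 621, 174, 301 and 518 normalized counts at 26 M and 55.6 to 269 at 20 M, and 4 of 5 libraries of 26 M lay above that range (log2 difference 1.76, standard error 0.49, adjusted p = 0.199). C1qb, a chain of the first complement component that macrophages make, had 357, 565, 36.4, 124 and 379 against 0 to 112 (3.09, standard error 0.93). Ccr2 and C1qb had differences of 1.82 and 2.02 when the 5 libraries were left out. Leaving out the 5 libraries, 2 of the 18 genes were higher and 0 lower, with a median of 0.84. Of all tested genes, 4.07% were higher and 3.30% lower in that fit. With all libraries the complement list had 7 of 18 genes higher and 0 lower, against 6.66% and 4.82% of all tested genes. Its median was 1.06. Among the 7 were C7, a component of the membrane attack complex (1.37, standard error 0.44), and C1ra, a C1 protease (2.22, standard error 0.72). They were 0.77 and 0.52 without the 5 libraries. In that fit 2 of the 18 complement genes were higher and 0 lower, against the same 4.07% and 3.30%, with a median of 0.64. As these are bulk tissues, more cells of a type cannot be told apart from more RNA per cell.

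Other immune lists held fewer genes below the unadjusted threshold. The T cell list had 2 of 20 genes higher and 1 lower, the B cell list 1 of 15 and 0, the neutrophil list 3 of 12 and 0, and the chemokine list 3 of 29 and 0, before adjustment. In either direction these were 15%, 6.67%, 25% and 10.3%, against 11.5% of all tested genes. The median log2 differences of these lists were 0.47, 0.55, 0.98 and 0.86. Their summed normalized counts did not all follow. From 20 M to 26 M the median sum went from 2719 to 2411 for T cell and from 3049 to 1930 for neutrophil genes. It went from 11061 to 7471 for chemokine genes and from 4893 to 5718 for B cell genes. The alveolar macrophage list had a median log2 difference of 0.94, and its median sum went from 5727 to 3941. Leaving out the 5 libraries, the medians were 0.03 for T cell, 0.37 for B cell, 1.21 for neutrophil and 0.88 for chemokine genes. The list of p53 targets and cell cycle arrest had 0 of 21 genes with an unadjusted p of at most 0.05. The senescence gene Cdkn1a ranged from 142 to 549 at 26 M and from 40.9 to 457 at 20 M, with a log2 difference of 0.68 (standard error 0.80). Cdkn2a ranged from 5.25 to 100 and from 0 to 70.5 (1.58, standard error 1.30), and its difference turned to -0.45 without the 5 libraries. Both overlapped between the ages, and neither passed. In the SenMyo list of senescence genes, 15 of 99 were higher and 3 lower before adjustment, with a median of 0.31, and 7 and 3 without the 5 libraries, with a median of 0.39. Of all tested genes, 6.66% were higher and 4.82% lower, and 4.07% and 3.30% without those libraries.

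In the lists of lung structure no gene passed the adjustment. The defining genes of alveolar epithelium were present in all 12 libraries, with the type 2 list at 16915 to 64265 summed normalized counts at 20 M and 31577 to 76354 at 26 M. Of its 16 genes, 3 were higher and 0 lower before adjustment, among them the surfactant protein Sftpb, which ranged from 929 to 2548 at 20 M and from 1485 to 8407 at 26 M (log2 difference 1.12, standard error 0.45). The type 1 marker Ager had a log2 difference of 1.11 (standard error 0.57). In the capillary and general endothelium list, 6 of 19 genes were higher and 0 lower, with a median of 0.65, and 2 were higher without the 5 libraries, with a median of 0.22. Of all tested genes, 6.66% were higher, and 4.07% without those libraries. Tek, the endothelial receptor for angiopoietins, had 3075, 2026, 1083, 2032 and 1880 normalized counts at 26 M and 173 to 1196 at 20 M, and 4 of 5 libraries of 26 M lay above that range (1.56, standard error 0.39, adjusted p = 0.168). Its difference was 0.99 without the 5 libraries. Tbx2, a transcription factor of lung mesenchyme and endothelium, did not overlap, with 278 to 507 at 26 M and 96.3 to 243 at 20 M (1.13, standard error 0.43). The fibroblast list had 1 of 14 genes higher (7.14%), Inmt, and the list of collagens and fibrillar matrix 2 of 23 (8.70%). Both shares were near the 6.66% of all tested genes. The ciliated list had 2 of 21 genes higher and 2 lower. Leaving those libraries out, the medians of the type 2, fibroblast, collagen and ciliated lists were 0.21, 0.11, 0.23 and 0.53.

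**Figure D4:**
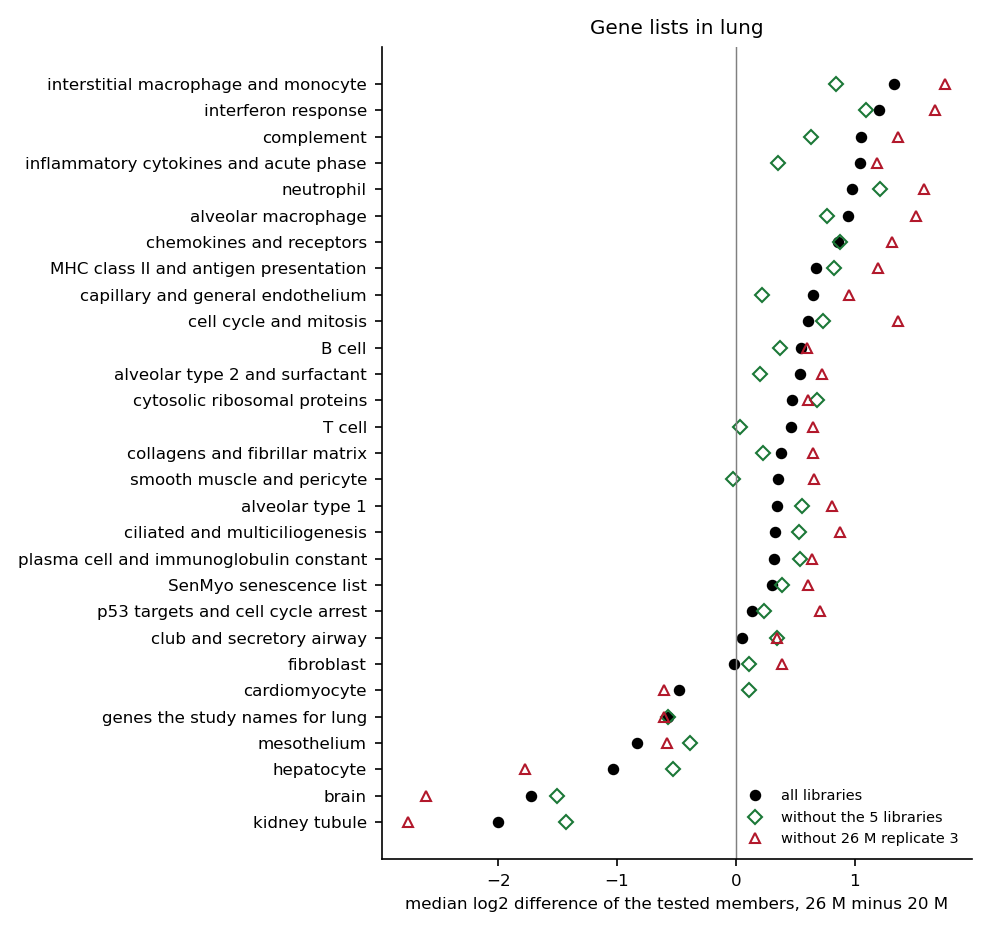
Median log2 difference between 26 M and 20 M (x axis) over the tested genes of 29 lists (y axis). Black circles use all libraries, green diamonds leave out the 5 libraries that stood apart and red triangles leave out the 26 M replicate 3. With all libraries, the medians of the lists shown run from -2.00 for kidney tubule genes to 1.33 for interstitial macrophage and monocyte genes, and without the 26 M replicate 3 these are -2.76 and 1.76.

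Markers of kidney, liver and brain had negative differences. Among all 21257 tested genes, 10900 had a negative difference and 4.82% were lower with an unadjusted p of at most 0.05. All 15 tested kidney tubule genes were negative, 7 with an unadjusted p of at most 0.05, and their median log2 difference was -2.00. Their summed level was 1408 to 9283 normalized counts at 20 M (median 7002). At 26 M it was 672 to 1318 in 4 libraries and 8517 in replicate 3. Slc12a1, the salt transporter of the thick ascending limb, had 38.7, 89.1, 843, 34.1 and 30.3 at 26 M and 101 to 1084 at 20 M (log2 difference -2.53, standard error 0.87). All 22 hepatocyte genes were negative too, 1 with an unadjusted p of at most 0.05 (median -1.03), and their sum was 3593 to 47066 at 20 M, 1781 to 2971 in 4 libraries of 26 M and 48238 in replicate 3. Of 9 tested brain genes, 5 were lower before adjustment (median -1.72), among them the myelin gene Mbp (-1.33, standard error 0.47), which peripheral nerve expresses as well. The cardiomyocyte list summed to 2805 to 74124 at 20 M and 3287 to 4862 at 26 M, and its 13 tested genes had a median of -0.47. Without the 5 libraries the medians were -1.43 for kidney tubule, -0.53 for hepatocyte and -1.51 for brain genes, and that of cardiomyocyte genes turned to 0.11. In that fit 1 of 15 kidney tubule, 0 of 22 hepatocyte and 1 of 9 brain genes were lower before adjustment. The share of all tested genes was 3.30%. The adipocyte list had a positive median of 0.70, and 0.11 without the 5 libraries. The part of these transcripts in the immune lists and in H2-Q6 was not tested beyond the fit with the hepatocyte and kidney tubule lists as covariates. In that fit the log2 difference of H2-Q6 was 2.42 (adjusted p = 0.457 by limma) and that of Gm38256 was -3.10 (adjusted p = 0.415), so both kept their sign and neither passed.

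Several genes that the study names for the aging lung belong to such organs. Of the 25 genes, 0 were higher and 4 lower before adjustment, against 6.66% and 4.82% of all tested genes, with a median of -0.57. As the list was chosen on these samples, it is not independent evidence. The 4 were the renal phosphate transporter Slc17a1 (log2 difference -2.99, standard error 0.88), the peroxisomal oxidase Hao2 (-3.21, standard error 0.98), the leukotriene enzyme Alox5 (-1.64, standard error 0.52) and the inflammasome-related Nlrp12 (-2.22, standard error 0.81). Slc17a1 had 34.3 to 738 normalized counts at 20 M and 8.24 to 113 at 26 M, and Alox5 had 161 to 1154 and 66.5 to 334. Without the 5 libraries, 0 of the 25 genes were higher and 3 lower, against 4.07% and 3.30% of all tested genes. The median of the list was -0.57 in that fit too.

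The differences varied with gene structure. With the genes in 5 equal bins, from the lowest to the highest GC content of the transcript the median log2 difference went from -0.21 to 0.25, and from the shortest to the longest genomic span from 0.28 to -0.23. In the bin of longest genes, 478 genes were lower and 163 higher before adjustment, and in the shortest 62 and 394. Without the 5 libraries the medians went from -0.09 to 0.33 and from 0.42 to -0.29. The libraries differed in the same properties, with a slope against GC content of -0.32 to 0.02 log2 units for each 10 points at 20 M and of -0.09 to 0.22 at 26 M. The lowest slope at 26 M was that of replicate 3. With both properties regressed out, Gm38256 still passed (-3.96, adjusted p = 0.0482) and H2-Q6 did not (2.94, adjusted p = 0.109).

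**Figure D5:**
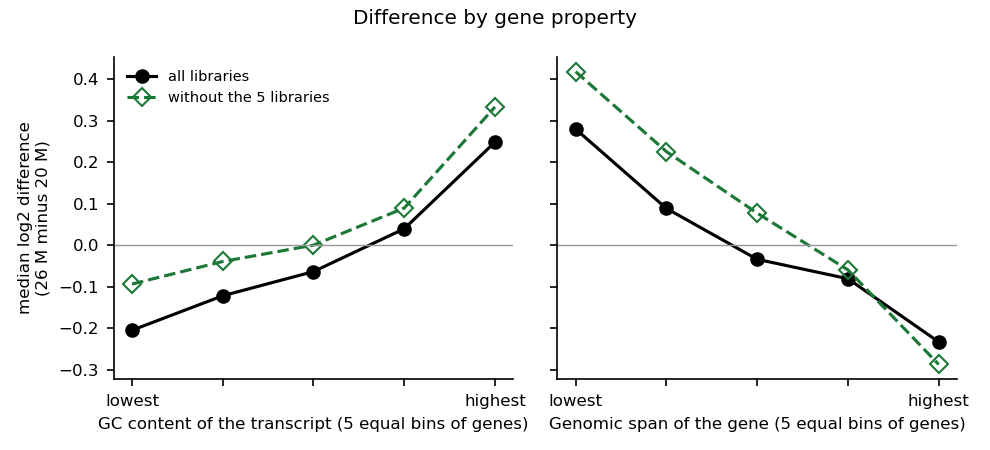
Median log2 difference between 26 M and 20 M (y axis) for 5 equal bins of the tested genes by GC content of the longest transcript (left) and by genomic span (right). Black circles use all libraries and green diamonds leave out the 5 libraries that stood apart. The medians rise with GC content from -0.21 to 0.25 and fall with span from 0.28 to -0.23.

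The count of calls rested on single mice. Without the 26 M replicate 3, 155 genes passed, 47 higher and 108 lower, and all 155 had the same sign in the full comparison, in which 2 of them passed. Both fits share all other libraries, so the same sign is no independent evidence. Among the 155 genes were Gbp7 (log2 difference 2.01, adjusted p = 0.0169), Stat2 (1.68, adjusted p = 0.0267), Nupr1 (1.78, adjusted p = 0.0210) and Itga3 (2.36, adjusted p = 0.0230). The lower ones included Fndc1, a fibronectin-domain protein (-2.52, adjusted p = 0.00690), and Kcnd3, a potassium channel of heart and brain (-2.64, adjusted p = 0.0141). Of the interferon response list, 3 genes passed in this fit, and 16 were higher and 1 lower before adjustment, against 10.1% and 7.28% of all tested genes in the same fit. In replicate 3, Fndc1 stood at 1023 and Kcnd3 at 2477 normalized counts, against 71.5 to 128 and 198 to 281 in the other 4 mice. The median span was 13402 bases for the higher and 88152 for the lower of the 155 genes, against 22255 for all tested genes. Without the 20 M replicate 2, 4 or 6, 7, 6 and 15 genes passed, and without replicate 3 of that age the count was 2. Without the 20 M replicate 1, 5 or 7, or without the 26 M replicate 1, 2, 4 or 5, 0 genes passed by limma, with 1677 to 2282 before adjustment.

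Between the same ages, 1075 of 16839 tested genes passed in kidney (6.38%), 549 higher (3.26%) and 526 lower (3.12%). In heart 0 of 15842 passed by limma (0%), with 300 before adjustment (1.89%), and in testis 0 of 19613, with 511 before adjustment (2.61%). In skeletal muscle 1 of 17430 passed (0.00574%), Gm29506. The tables were normalized separately and the differences between organs were not tested. H2-Q6 had log2 differences of 0.20 (standard error 0.36) in kidney, 0.71 (standard error 0.26) in heart, 0.26 (standard error 0.33) in skeletal muscle and 0.26 (standard error 0.29) in testis, and it passed in none of them. Its means in heart were 251 at 20 M and 400 normalized counts at 26 M. Gm38256 had means of 2.69 to 8.41 normalized counts at both ages in heart, kidney and testis and of 18.2 at 20 M and 33.0 at 26 M in skeletal muscle. In heart it was too low to be tested, and its log2 differences were 0.16 (standard error 0.66) in kidney, 0.75 (standard error 0.65) in skeletal muscle and -0.33 (standard error 0.27) in testis.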

How the data were processed

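Polyadenylated RNA of whole lung was sequenced as single reads without molecular identifiers, so PCR copies count as reads. Per the labels and the study's methods, the authors trimmed adapters, aligned with HISAT2 2.1.0 to GRCm38, counted reads by strand on Ensembl genes in R 3.5.1 and scaled them with DESeq2 size factors, organ by organ. The deposited signal holds these normalized counts. All values were whole multiples of 1 step per library, so whole reads were recovered for the count tests (100% of values).

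Genes that reached 10 normalized counts in 5 or more of the 45 lung libraries were tested on log2(normalized count + 1), the scale of every log2 difference, which understates changes of low genes. The main test was limma 3.58.1 (R 4.3.3) with a trended variance over all 6 ages, contrast 26 M minus 20 M, two-sided, with Benjamini-Hochberg adjustment at 0.05. The study's own test was a DESeq2 likelihood ratio test over all ages. edgeR 4.0.16 and DESeq2 1.42.0 were run on the recovered reads as alternatives. Scripts were tested on simulated data.

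A library stood apart if at least 40 abundant genes (mean of at least 100) had no read or at least 5% of its reads fell on Gm and Rik genes. The named genes were those that passed, those with the smallest p in each direction, the leading members of 59 gene lists, genes the study names for lung, and the leading genes of fits without 1 library. The members and lists were chosen with earlier results of these data known. There were 0 unused columns of samples. The liver table was not used here. The contrast rests on 5 and 7 animals. Its standard errors in the main test come from a spread estimated over all 45 lung libraries. Some items are not reported here.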

Additional observations from a re-analysis of the deposited data

Results flagged for a closer look

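In 126 groups of 5 or 7 libraries, 29 values lay farther from the other libraries of their age than Dixon's 95% limit. For independent, normally distributed values, chance gives about 1 in 20 groups. Here the limit was applied to normalized counts without logs, and the groups came from the same 12 libraries. The 29 can therefore not be set against 1 in 20. Most of the 29 were in the 26 M replicate 3. Fndc1 and Kcnd3 were among the leading genes of the fit without this replicate. Its normalized counts were 707 for Gm38256, 180 for Ppm1m, 222 for Rccd1, 1356 for Sfxn5, 843 for Slc12a1, 3862 for Kap, 17711 for Alb and 4502 for Mbp. They were 178 for Myl2, 99.97 for Cdkn2a, 334 for Alox5, 1023 for Fndc1 and 2477 for Kcnd3. The sums of its hepatocyte, kidney tubule and brain lists were 48238, 8517 and 15793, and 56 abundant genes had no read.

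At 20 M, replicate 1 was high for Gm38256 (13288). Replicate 4 was high for H2-Q7 (2487), H2-K1 (5607) and the summed list of MHC class II and antigen presentation (24907), and replicate 2 for the summed complement list (10041). Replicate 7 was low for Oasl2 (15.4) and high for Myl2 (5744), Myh6 (21552) and the summed cardiomyocyte list (74124). Replicate 6 was high for Cdkn2a (70.5), for genes detected (26588) and for the share of reads on Gm and Rik genes (7.49%).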

How the results depend on the processing

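Against 2 genes in the full comparison, 0 passed with a pseudocount of 0.1, with no filter, by edgeR, with 26 M and 20 M alone, or with the suffix b, log2 depth or the hepatocyte and kidney tubule lists as covariates. Before adjustment these fits had 2490, 2698, 3132, 1551, 2070, 1412 and 1345 genes. DESeq2 called 197. Leaving out 1 library at a time gave 0 to 155 genes, with 155 without the 26 M replicate 3. Of alternatives chosen after seeing the data, leaving out the 5 libraries that stood apart gave 0 genes (1568 before adjustment), array weights 1480 (590 higher and 890 lower), and regressing out GC content and span 1. Of the 155 genes, 149 were among the 1480 and 26 among the 197. The cause of these changes was not tested. The split before adjustment was 1416 higher and 1024 lower, and it became 979 and 2153 by edgeR, 1012 and 2368 by DESeq2, 531 and 881 with depth as a covariate, and 2201 and 655 without suffix b libraries. With both ages alone, kidney had 423 genes and skeletal muscle 0 (limma). Over 288 named genes and 28 alternatives, 7809 values kept their side of the threshold. Of the rest, 169 passed only in the alternative and 34 no longer passed. H2-Q6 and Gm38256 kept their sign in all 28 alternatives. Genes that did not pass could change sign, as Tnnt3 kept it in 15, Cxcl9 in 25 and Cdkn1a in 26 of 28. No paired analysis was possible because each age holds different mice and replicate numbers follow accession order. Depth, suffix and other-organ transcripts differ between the ages, and their part cannot be told apart with 5 and 7 mice.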

Other observations

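Of 8 tested platelet and megakaryocyte genes, 2 were higher and 0 lower before adjustment, with a median log2 difference of 1.63. The count and median were 5 and 2.82 without the 5 libraries that stood apart, 5 and 2.07 without the 26 M replicate 3, and 0 and 0.76 by edgeR. Of 34 cytosolic ribosomal protein genes, 6 were higher and 0 lower (median 0.48), and 33 were positive, against 10356 of all 21257 tested genes. The count of higher ones was 0 with GC content and span regressed out (median 0.26) and 0 without suffix b libraries (median 0.42). It was 3 by edgeR (median 0.43), 4 without the 5 libraries (median 0.69) and 8 without the 26 M replicate 3 (median 0.60). Of 25 cell cycle genes, 2 were higher and 0 lower (8%, median 0.61), against 6.66% and 4.82% of all tested genes. Of 6 mesothelium genes, 0 were higher and 3 lower (median -0.83), and 0 were lower without the 5 libraries (median -0.38). The circadian clock list had 0 of 16 genes with an unadjusted p of at most 0.05. In the comparison of all libraries no gene of these lists passed the adjustment by limma. Without the 26 M replicate 3, 1 cell cycle gene passed, and with array weights 2 mesothelium genes and 1 platelet gene did.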
